A study of Mus musculus with 12 samples.

Results

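The 4 JAK kinase genes Jak1, Jak2, Jak3 and Tyk2, and 6 genes for receptors of myeloid growth factors, Csf2ra, Csf2rb, Csf2rb2, Csf1r, Csf3r and Flt3, were followed in dendritic cells grown from mouse bone marrow. They were taken by gene symbol from the deposited tables, where they are 10 of 55335 genes, and all 10 passed the filter on low counts. RNA-seq was carried out on 12 cultures of bone marrow-derived dendritic cells (BMDCs) from C57BL/6 mice that were grown for 6 days with GM-CSF. The WT group came from CreER mice and the KO group from CreER;CTCF fl/fl mice, in which 4-OH tamoxifen (4-OHT), given on the first day of culture, activates a Cre recombinase made from the Rosa26 locus in all cells and deletes Ctcf, the gene of an architectural protein of chromatin. Floating CD11c+ cells were selected with magnetic beads. The WTLPS and KOLPS groups are the same genotypes stimulated with LPS, a bacterial cell wall component sensed by TLR4, at 100 ng/ml for 3 h. Each group held 3 biological replicates, all groups carry CreER, and all cells were in GM-CSF. It is not stated plainly whether the WT cultures also received 4-OHT, and if they did not, its effect and that of CTCF depletion cannot be told apart.

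JAK kinases sit on the intracellular tails of cytokine receptors that have no kinase of their own. When a cytokine brings the chains together, the kinases phosphorylate each other, the receptor and the STAT transcription factors, which then move to the nucleus. The GM-CSF receptor joins an alpha chain that binds the ligand, Csf2ra, to the common beta chain, Csf2rb, which carries JAK2 and signals mainly through STAT5, and mice have a second beta chain gene, Csf2rb2, whose product serves IL-3. Csf3r is the G-CSF receptor and also uses JAKs, whereas Csf1r and Flt3, the receptors of M-CSF and of FLT3 ligand, are receptor tyrosine kinases. In the study these genes bear on whether CTCF depletion alters the JAK/STAT pathway downstream of the GM-CSF receptor.

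Total expected counts, the RSEM estimate of reads per gene, were 12769773 to 16586334 per library. Normalized counts are these counts divided by the library size after TMM scaling and brought to the mean size of the 12 libraries, and each error given as an SD is over 3 replicates. Ctcf itself had 975 to 1051 normalized counts in WT and 516 to 570 in KO, 746 to 886 in WTLPS and 526 to 564 in KOLPS, so the groups with and without the deletion did not overlap. Over 9338 genes, WTLPS replicate 1 and KOLPS replicate 2 lay further from their group means than the other libraries did (root mean square deviation of 0.225 and 0.242 on the log2 scale, against 0.096 to 0.163). These 2 libraries also deviated together (Pearson r = 0.66 between their deviations across genes, which are not independent replicates), and the results below that rest on them are given with and without them. WTLPS replicate 3 and KOLPS replicate 1 had a similar r of 0.62. Deviations from a group mean cancel within the group, so 1 deviating library also shifts those of the others. WTLPS replicate 1 and KOLPS replicate 2 were chosen after seeing the data, and without them 2 libraries are left in those groups. Leaving out the most deviating libraries also lowers the spread, so smaller p-values without them are not independent support for a call. The 10 dendritic cell markers were detected in all groups. Their summed TPM, a level normalized for transcript length and library size, was 12860 to 13620 in WT and 8309 to 8667 in KO. Most of that sum came from H2-Aa, H2-Ab1, H2-Eb1 and Cd74, whereas Cd209a lay at 1.96 ± 0.51 TPM in KO (SD, n = 3). Itgax, the gene of CD11c, lay at 366 ± 9.20 TPM in WT and was higher in KO at 605.5 ± 7.01 TPM. B cell markers summed to at most 1.71 TPM in any library, and erythroid markers to at most 0.96 TPM. T and NK cell markers reached 3.31 TPM, mast cell and basophil markers 4.59 TPM and plasmacytoid dendritic cell markers 707 TPM. Most of the plasmacytoid sum came from Bst2, at 196 ± 6.00 TPM in WT and 623 ± 96.8 TPM in KOLPS. Siglech lay at 0.11 ± 0.06 TPM in WT and 0.05 ± 0.06 TPM in KOLPS. Gata2, also listed as a progenitor marker, made up 4.44 of the 4.59 TPM, in KOLPS replicate 1. In bulk RNA, fewer cells of a type and less RNA per cell cannot be told apart.

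After LPS, Jak2 rose and Csf1r, Csf3r and Csf2rb fell in both genotypes. In unstimulated cells, CTCF depletion lowered Flt3 and Jak2 and raised Csf1r, Csf3r and Csf2rb2. After LPS it lowered Csf2ra, Csf2rb and Flt3. In WTLPS compared with WT, 3 of the 10 genes rose and 3 fell at an adjusted p under 0.05 in edgeR's quasi-likelihood test, whereas 30.0% and 30.2% of all 14008 genes tested did. In KO compared with WT, 3 rose and 2 fell, against 22.2% and 22.4% of all genes. In KOLPS compared with WTLPS, none rose and 3 fell, against 21.4% and 23.3% of all genes. The number that fell was 1 to 6 with each library left out in turn (6 without KOLPS replicate 2, 1 without KOLPS replicate 1 or 3), 7 without WTLPS replicate 1 and KOLPS replicate 2, and 4 in DESeq2. The 0 rises were also 0 at an unadjusted p under 0.05 in edgeR and 0 in DESeq2. In KOLPS compared with KO, 3 rose and 5 fell, against 33.6% and 33.9% of all genes. As counts of calls these lie near the shares of all genes, so the values are given gene by gene.

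**Figure D1:**
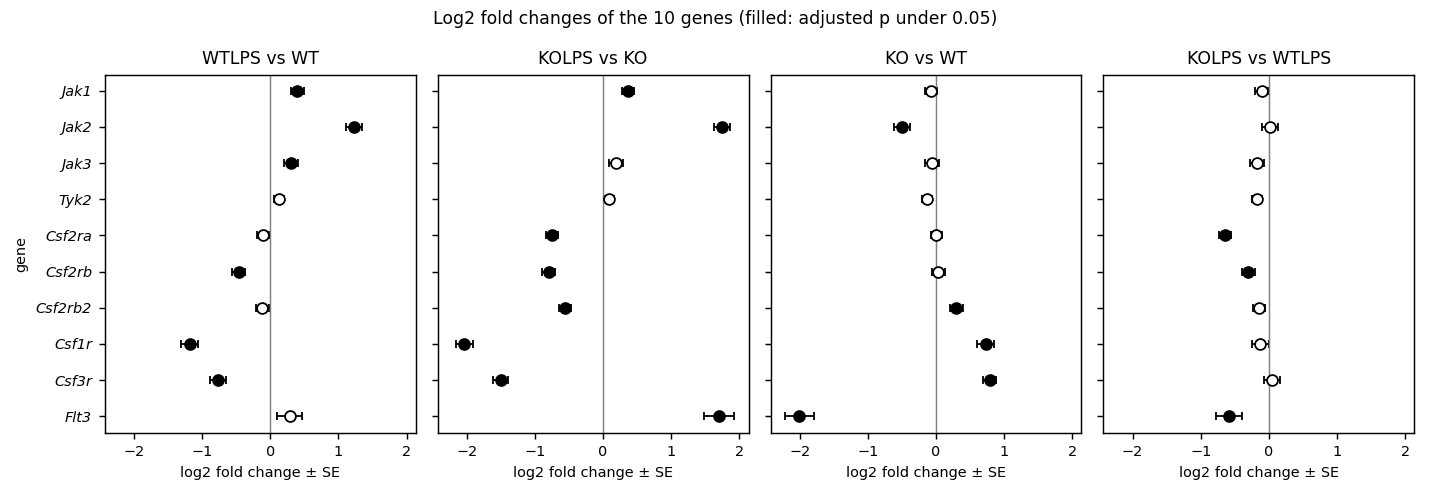
Log2 fold change (horizontal axis) with its SE from edgeR for each of the 10 genes in the 4 comparisons; filled points have an adjusted p under 0.05. Jak2 lies at 1.23 in WTLPS compared with WT and 1.74 in KOLPS compared with KO, and Flt3 lies at -2.0 in KO compared with WT, the lowest point of that panel.

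By TPM, which divides by length and so allows levels of different genes to be compared, Csf2rb had the highest level of the 10 genes in WT at 1129 ± 144 TPM (SD, n = 3). Csf2ra at 380 ± 39.5 and Csf1r at 351 ± 16.2 TPM followed, and their ranges overlapped. Csf2rb2 came next at 321 ± 7.63 TPM. The kinases lay lower, with Jak2 at 123 ± 7.44, Jak1 at 65.5 ± 2.09 and Tyk2 at 50.8 ± 0.96 TPM, each range separate from the next. Csf3r at 7.66 ± 0.47 and Jak3 at 7.11 ± 0.32 TPM overlapped, and Flt3 was the lowest at 3.65 ± 0.08 TPM. In KO, Csf1r moved to the second place at 511 ± 9.04 TPM, above Csf2rb2 (375 ± 10.6) and Csf2ra (366 ± 25.3), and Flt3 lay at 0.84 ± 0.24 TPM. In WTLPS, Jak2 reached 192 ± 42.2 TPM and overlapped Csf2rb2 at 200 ± 13.7 TPM. In KOLPS, the ranges of Csf2rb, Jak2, Csf2rb2, Csf2ra and Csf1r overlapped from each to the next, from 336 ± 186 down to 92.7 ± 14.4 TPM.

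**Figure D2:**
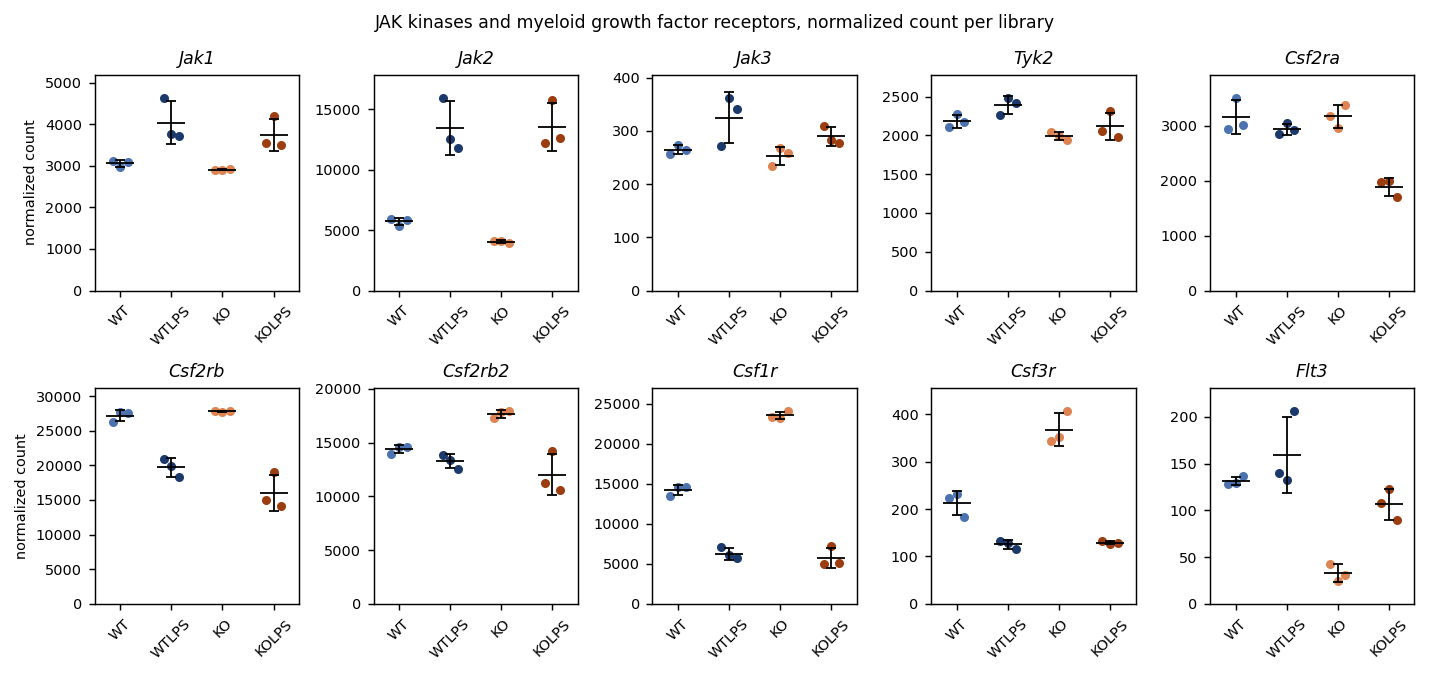
Normalized count (vertical axis, from 0) of each gene in the 12 libraries; points are libraries by group, the line is the group mean and the bar the SD over 3 replicates. The KO points of Csf1r and Csf3r lie above all others, those of Flt3 below all others, and the KOLPS points of Csf2ra below all others.

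Jak2 (ENSMUSG00000024789.13, chromosome 19 from 29251828 to 29313080 of mm10, plus strand), the kinase bound to the common beta chain, had the largest fold changes of the 4 kinases in the comparisons of LPS and of unstimulated KO with WT. Its normalized count was 5946, 5376 and 5862 in the WT replicates and 15940, 12510 and 11760 in the WTLPS replicates. It was 4075, 4128 and 3926 in KO and 12160, 15770 and 12640 in KOLPS. The KO libraries were the lowest, the WT libraries came next without overlap, and both groups with LPS were higher and overlapped each other. LPS raised Jak2 in WT by a log2 fold change of 1.23 (SE 0.12, edgeR adjusted p = 4.3e-07), to 234% of the WT mean. In KO it rose by 1.74 (SE 0.12, edgeR adjusted p = 9e-09), to 335% of the KO mean. CTCF depletion lowered Jak2 in unstimulated cells to 70.6% of the WT mean (log2 fold change -0.50, SE 0.11, edgeR adjusted p = 0.0025), and leaving out each library in turn gave -0.58 to -0.48. After LPS, KOLPS and WTLPS differed by 0.013 (SE 0.11, edgeR adjusted p = 0.94). The rise with LPS was larger in KO than in WT by an interaction of 0.52 (SE 0.16, edgeR adjusted p = 0.041), which is close to the threshold. Without WT replicate 1 or 3, WTLPS replicate 2 or 3, or any of the KO replicates, its adjusted p was 0.056 to 0.1, and without WTLPS replicate 1 and KOLPS replicate 2 together it was 3.8e-05 with an interaction of 0.53.

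The bases before the start of Jak2 are shown because Jak2 is the kinase whose level followed both treatments. They were taken from RefSeq promoter windows on GRCm38.p6, the mm10 assembly, which run from 250 bases before to 50 bases after a gene's start and were held for 8 of the 10 genes, all but Csf2rb and Csf1r. Both strands were searched for the letters TTCNNNGAA (STAT), GAGGAA (PU.1/ETS), AGGGGGC (core of the CTCF motif) and GGGA followed after 4 bases by CC (NF-kB), which capitals mark. The 250 bases at chr19:29251553-29251802, plus strand, read as follows.
Jak2: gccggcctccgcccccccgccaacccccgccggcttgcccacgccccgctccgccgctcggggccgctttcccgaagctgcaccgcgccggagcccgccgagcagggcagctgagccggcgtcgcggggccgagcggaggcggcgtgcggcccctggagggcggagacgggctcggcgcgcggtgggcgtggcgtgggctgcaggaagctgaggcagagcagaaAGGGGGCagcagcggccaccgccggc
The match to AGGGGGC begins at base 225 of the window, and 10.6% of all 32851 RefSeq windows hold these letters. Such a match is a description of the sequence and not a binding site, since no binding was measured in these libraries.

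Jak1 (ENSMUSG00000028530.14, chromosome 4 from 101152367 to 101265282, minus strand), which serves interferon and gp130 receptors, rose with LPS and did not change detectably with CTCF depletion. It had 3112, 2967 and 3098 normalized counts in WT, 4639, 3765 and 3709 in WTLPS, 2902, 2895 and 2918 in KO, and 3558, 4196 and 3496 in KOLPS. Every library with LPS lay above every library without it. The log2 fold change with LPS was 0.40 in WT (SE 0.091, edgeR adjusted p = 0.0017) and 0.37 in KO (SE 0.092, edgeR adjusted p = 0.0026). KO and WT differed by -0.075 (SE 0.091, edgeR adjusted p = 0.54). The direction with LPS rests on the scaling, since on log2(TPM + 1) it was -0.15 in WT and -0.095 in KO. That scale shifted the median of 6955 well-expressed genes by -0.52 in WT and -0.46 in KO relative to TMM, so that Jak1 rose relative to the median gene on both scales. Raver2 overlaps Jak1 on the opposite strand, and reads of overlapping genes may have been divided between them where strand was not used.

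Tyk2 (ENSMUSG00000032175.11, chromosome 9 from 21104068 to 21131243, minus strand) serves type I interferon and IL-12 family receptors. It had 2106, 2271 and 2173 normalized counts in WT, 2266, 2485 and 2415 in WTLPS, 2049, 1985 and 1944 in KO, and 2060, 2313 and 1982 in KOLPS. No comparison of Tyk2 passed edgeR's test with all libraries. KO lay below WT without overlap by -0.13 (SE 0.072, edgeR adjusted p = 0.16), and KOLPS differed from WTLPS by -0.17 (SE 0.073, edgeR adjusted p = 0.067). Without WTLPS replicate 1 and KOLPS replicate 2, the latter was -0.28 (edgeR adjusted p = 0.00074) and the former -0.13 (edgeR adjusted p = 0.026). The antisense gene 1700084C06Rik overlaps Tyk2. After LPS, the difference was 0.13 in WT and 0.088 in KO, and on log2(TPM + 1) it reversed to -0.38 (limma adjusted p = 0.00077) and -0.39 (limma adjusted p = 0.00069), which pass but are smaller than the shift of the median gene on that scale.

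Jak3 (ENSMUSG00000031805.17, chromosome 8 from 71676296 to 71690575, plus strand), which pairs with the common gamma chain Il2rg, was the least abundant kinase. It had 257, 273 and 265 normalized counts in WT, 271, 363 and 342 in WTLPS, 234, 268 and 259 in KO, and 310, 283 and 277 in KOLPS. WT and WTLPS overlapped, and only that comparison passed the test for Jak3, with a log2 fold change of 0.30 (SE 0.1, edgeR adjusted p = 0.02). The call was lost without WT replicate 1, 2 or 3 or WTLPS replicate 2 or 3 (adjusted p of 0.07 to 0.17), and on log2(TPM + 1) the direction reversed to -0.26. Insl3 lies on the same strand within Jak3, and 7.78% of the 100-base windows of the longest coding Jak3 transcript also occur in Insl3 transcripts. The Jak3 counts are uncertain to that extent.

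The balance among the kinases can be read within each library without scaling between libraries. Jak2 made up 50.8%, 48.3% and 50.5% of the summed TPM of the 4 kinases in WT, and 67.5%, 63.7% and 62.4% in WTLPS. It made up 43.6%, 43.6% and 42.7% in KO, and 65.1%, 69.0% and 66.8% in KOLPS. The share was thus lowest in KO, where each library lay below each WT library, and highest after LPS, where both genotypes overlapped. The TPM of Jak2 per TPM of Jak1 was 1.87 ± 0.062 in WT, 3.21 ± 0.2 in WTLPS, 1.42 ± 0.041 in KO and 3.47 ± 0.3 in KOLPS (SD, n = 3). For WTLPS against WT, KO against WT and KOLPS against KO, the two-sided exact permutation test of the Jak2 share gave p = 0.1, the smallest value that 3 libraries against 3 allow, or 0.16 after Benjamini-Hochberg adjustment over the 32 tests of 8 such measures. KOLPS and WTLPS gave p = 0.3 in the same exact test.

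**Figure D3:**
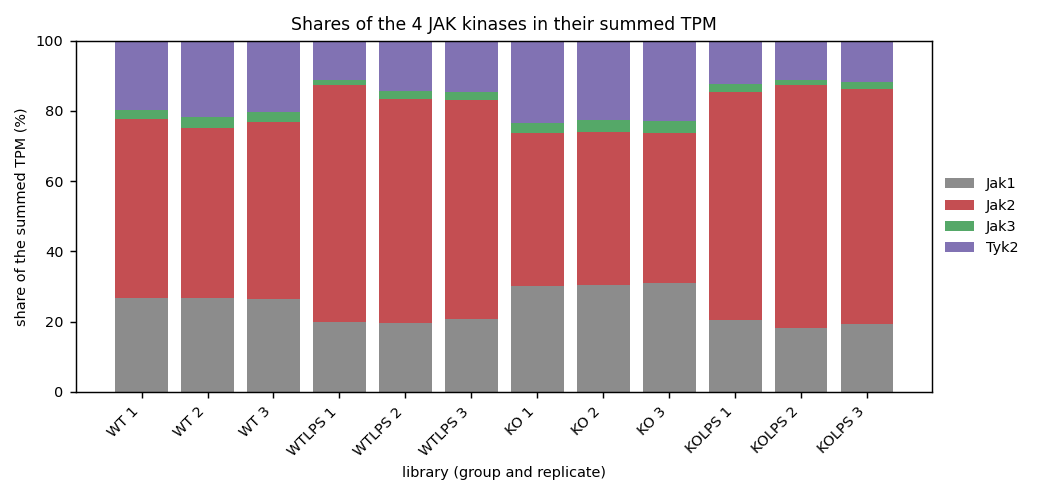
Share of each JAK kinase (colour) in the summed TPM of the 4 kinases, in percent (vertical axis), with 1 bar per library. The Jak2 segment spans 42.7% to 43.6% in KO, 48.3% to 50.8% in WT and 62.4% to 69.0% after LPS.

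The 3 genes for chains of the GM-CSF and IL-3 receptors were lower after LPS in KO, whereas in WT only Csf2rb passed edgeR's test with all libraries. Csf2ra (ENSMUSG00000059326.7, chromosome 19 from 61223957 to 61228429, minus strand), the ligand-binding alpha chain, had 2949, 3512 and 3013 normalized counts in WT and 2846, 3046 and 2922 in WTLPS. It had 3180, 2964 and 3375 in KO, and 1968, 1990 and 1695 in KOLPS. The KOLPS libraries lay below all 9 others, which overlapped. KOLPS was at 64.1% of the WTLPS mean (log2 fold change -0.64, SE 0.087, edgeR adjusted p = 3.5e-05) and at 59.4% of the KO mean (-0.75, SE 0.087, edgeR adjusted p = 3.1e-06). WTLPS differed from WT by -0.10 (SE 0.086, edgeR adjusted p = 0.31) and KO from WT by 0.0067 (SE 0.086, edgeR adjusted p = 0.96). The response to LPS differed between the genotypes, with an interaction of -0.65 (SE 0.12, edgeR adjusted p = 0.0024) that passed under every alternative run. Without WTLPS replicate 1 and KOLPS replicate 2, KOLPS against WTLPS was -0.71 and the interaction -0.71.

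Csf2rb (ENSMUSG00000071713.6, chromosome 15 from 78325752 to 78353847, plus strand), the common beta chain of the GM-CSF, IL-3 and IL-5 receptors, had 26210, 27740 and 27630 normalized counts in WT and 20900, 19960 and 18250 in WTLPS. It had 27850, 27770 and 27820 in KO, and 14940, 18970 and 14070 in KOLPS. LPS lowered it in both genotypes without overlap, to 72.5% of WT (log2 fold change -0.46, SE 0.096, edgeR adjusted p = 0.00079) and to 57.5% of KO (-0.80, SE 0.097, edgeR adjusted p = 4.9e-06). KO differed from WT by 0.033 (SE 0.096, edgeR adjusted p = 0.81). KOLPS overlapped WTLPS at KOLPS replicate 2, and their log2 fold change was -0.30 (SE 0.096, edgeR adjusted p = 0.02). That call was lost without WTLPS replicate 1 or 2 or KOLPS replicate 1 or 3 (adjusted p of 0.053 to 0.097) and held at -0.40 (edgeR adjusted p = 1.5e-05) without WTLPS replicate 1 and KOLPS replicate 2 together. The interaction of -0.33 (SE 0.14, edgeR adjusted p = 0.11) did not pass with all libraries, and without both of those libraries it was -0.43 (edgeR adjusted p = 0.00026).

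Csf2rb2 (ENSMUSG00000071714.7, chromosome 15 from 78282507 to 78305721, minus strand), the IL-3-specific beta chain, lies 20030 bases from Csf2rb and is transcribed away from it. It had 13940, 14630 and 14580 normalized counts in WT and 13870, 13370 and 12580 in WTLPS. It had 17280, 17830 and 17950 in KO, and 11220, 14200 and 10630 in KOLPS. KO was above WT in every library, at 123% of its mean (log2 fold change 0.30, SE 0.092, edgeR adjusted p = 0.017), a call that was lost without any of the WT replicates or without KO replicate 2 or 3 (adjusted p of 0.051 to 0.097). LPS lowered it in KO by -0.56 (SE 0.093, edgeR adjusted p = 9.9e-05), whereas the difference in WT was -0.12 (SE 0.092, edgeR adjusted p = 0.29). The WT difference passed at -0.15 (edgeR adjusted p = 0.015) without WTLPS replicate 1 and KOLPS replicate 2, and at -0.68 (limma adjusted p = 0.00018) on log2(TPM + 1), where the median gene shifted by -0.52. The interaction was -0.44 (SE 0.13, edgeR adjusted p = 0.032). It was lost when any of 10 single libraries was left out (all but WTLPS replicate 3 and KOLPS replicate 2, adjusted p of 0.05 to 0.13), and without WTLPS replicate 1 and KOLPS replicate 2 it was -0.55 (edgeR adjusted p = 1.5e-05).

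The genes of both beta chains are nearly alike in sequence. The coding sequences of the longest GENCODE M21 transcripts, 2691 bases for Csf2rb and 2637 for Csf2rb2, were identical at 2505 of 2631 bases aligned without a gap (95.2%), with a longest identical run of 242 bases. Of the 100-base windows of the transcripts, 6.96% of Csf2rb and 7.20% of Csf2rb2 occurred in the other gene. The 60-base stretch with the most differences is shown, coding bases 304 to 363 of Csf2rb and 307 to 366 of Csf2rb2, counted from the first base of the start codon, with the 13 differing bases in capitals.
Csf2rb: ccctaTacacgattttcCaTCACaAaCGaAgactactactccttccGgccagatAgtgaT
Csf2rb2: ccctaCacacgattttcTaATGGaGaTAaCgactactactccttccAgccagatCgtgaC
RSEM divides a read that fits both genes between them, and the split is an estimate. With their counts summed before the fit, the pair fell with LPS in WT (log2 fold change -0.33, edgeR adjusted p = 0.0071) and in KO (-0.70, edgeR adjusted p = 1.5e-05). The sum did not pass in KO against WT (0.13, edgeR adjusted p = 0.29), in KOLPS against WTLPS (-0.24, edgeR adjusted p = 0.057) or in the interaction (-0.37, edgeR adjusted p = 0.077). The sum averages both genes, and the part of the division of reads in the calls of either gene was not tested.

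The promoter windows of Csf2ra and Csf2rb2 are shown because both genes differed between genotypes in their response to LPS. For Csf2ra the 250 bases are chr19:61228419-61228668 and for Csf2rb2 chr15:78305722-78305971, both on the minus strand of GRCm38.p6, with the same letters in capitals.
Csf2ra: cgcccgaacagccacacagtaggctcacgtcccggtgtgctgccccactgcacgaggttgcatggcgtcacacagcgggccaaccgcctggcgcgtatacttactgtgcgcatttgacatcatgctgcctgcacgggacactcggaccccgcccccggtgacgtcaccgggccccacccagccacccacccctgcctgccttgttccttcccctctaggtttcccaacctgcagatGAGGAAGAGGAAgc
Csf2rb2: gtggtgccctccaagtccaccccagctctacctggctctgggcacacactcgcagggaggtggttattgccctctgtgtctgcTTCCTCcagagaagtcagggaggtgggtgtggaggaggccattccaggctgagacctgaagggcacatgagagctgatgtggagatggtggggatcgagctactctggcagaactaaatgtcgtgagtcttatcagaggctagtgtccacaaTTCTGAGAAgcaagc
Csf2ra holds the GAGGAA letters from bases 237 and 243, next to each other. Within the bases shown, Csf2rb2 holds GAGGAA on the other strand from base 84 and the palindromic STAT letters TTCNNNGAA from base 236. GAGGAA occurs in 28.3% of all windows and TTCNNNGAA in 8.30%. The NF-kB letters, found in 20.7% of all windows, were met among the members only in Csf3r and Tyk2.

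RSEM also gives an effective length, the number of positions in a transcript where a fragment can start. It is shorter than the full transcript. For a gene it is averaged over the transcripts, weighted by their estimated shares, so it moves when the mix of transcripts moves. For Csf2rb it was 2654, 2193 and 2139 bases in WT, 2734, 3231 and 3750 in WTLPS, 2113, 2161 and 2058 in KO, and 4144, 2212 and 4180 in KOLPS. The values with LPS lay above those without it in each genotype, and KOLPS replicate 2 came closest to its unstimulated group. For Csf2ra it was 800, 784 and 800 bases in WT, 834, 899 and 963 in WTLPS, 776, 781 and 767 in KO, and 1013, 786 and 1023 in KOLPS. Again the groups with and without LPS did not overlap within a genotype, and KOLPS replicate 2 was the shortest of its group. The median change over all genes tested was -3.15 bases in WT and -0.44 bases in KO. For Jak2 the effective length rose from 4384 ± 18.4 in KO to 4658 ± 168 bases in KOLPS (SD, n = 3) without overlap, and in WT and WTLPS the values overlapped.

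GENCODE M21 lists 2 protein-coding transcripts of Csf2ra, of 1849 and 1771 bases, and 6 shorter or intron-retaining ones. The effective length of 767 to 1023 bases is a shortened measure, so it cannot be set directly against these full lengths. For Flt3, with transcripts of 3657 and 3951 bases, it was 3424 to 3468 bases. The values of Csf2ra lay much further below its coding lengths. Shorter transcripts thus made up part of its estimate in every library, and that part was not measured. Csf2rb has coding transcripts of 4900, 4764, 2083, 397 and 340 bases. TPM divides by the effective length, and its scale also moves the median gene down with LPS. The TPM of Csf2rb fell from 1129 to 413 TPM in WT and from 1178 to 336 TPM in KO. The TPM of Csf2ra fell from 380 to 217 in WT and from 366 to 133 in KO. On log2(TPM + 1), the difference of Csf2ra between WTLPS and WT was -0.80 (limma adjusted p = 0.00029), larger than the shift of -0.52 of the median gene on that scale. Levels of single transcripts were not analysed here, and no test was run on the lengths.

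**Figure D4:**
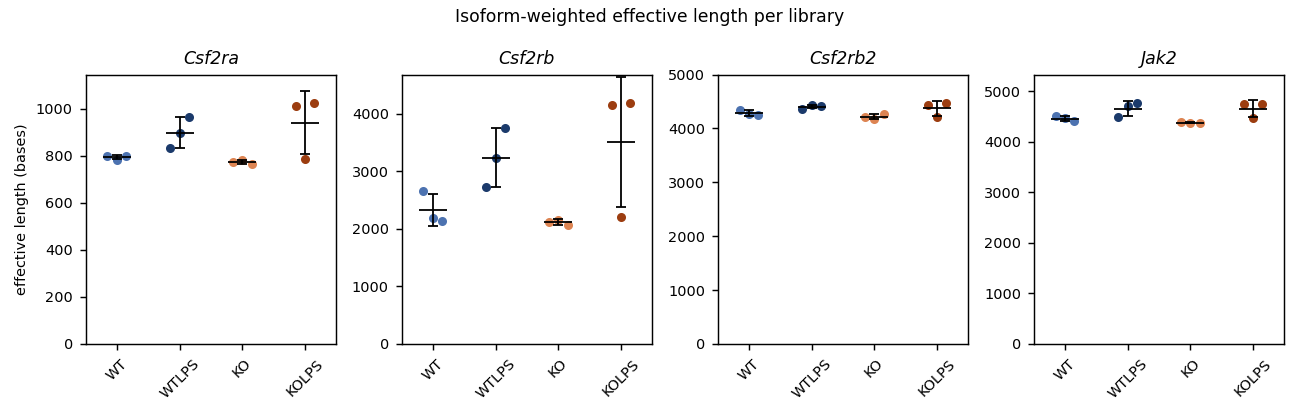
Effective length in bases (vertical axis, from 0) of Csf2ra, Csf2rb, Csf2rb2 and Jak2 in each library; the line is the group mean and the bar the SD over 3 replicates. In KOLPS, Csf2rb lies at 4144 and 4180 bases in replicates 1 and 3 and at 2212 bases in replicate 2.

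The alpha chain per beta chain, in TPM of Csf2ra over the sum of Csf2rb and Csf2rb2, was 0.282, 0.279 and 0.230 in WT and 0.315, 0.369 and 0.393 in WTLPS. It was 0.237, 0.222 and 0.249 in KO and 0.317, 0.212 and 0.288 in KOLPS. WTLPS lay above WT without overlap, and KO overlapped WT and KOLPS. The two-sided exact permutation test gave p = 0.1 for WTLPS against WT, which is its minimum, p = 0.4 for KOLPS against KO and p = 0.2 for KOLPS against WTLPS. With normalized counts, which are not divided by length, in place of TPM, the ratios of WT and WTLPS overlapped. On these counts KOLPS lay below WTLPS without overlap, and KO again overlapped WT and KOLPS. No test was run on the count ratios.

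Among the other receptors, Csf1r and Csf3r rose and Flt3 fell in KO. Csf1r (ENSMUSG00000024621.16, chromosome 18 from 61100598 to 61132149, plus strand), the M-CSF receptor that macrophages require, had 13490, 14630 and 14580 normalized counts in WT and 7088, 6058 and 5670 in WTLPS. It had 23370, 23260 and 24100 in KO, and 4974, 7197 and 5061 in KOLPS. KO was the highest group, WT came next, and both groups with LPS were lowest and overlapped. KO reached 166% of the WT mean (log2 fold change 0.73, SE 0.12, edgeR adjusted p = 0.00023). LPS lowered it to 44.1% in WT (-1.18, SE 0.12, edgeR adjusted p = 1.3e-06) and to 24.4% in KO (-2.04, SE 0.13, edgeR adjusted p = 3.9e-09), and the interaction was -0.85 (SE 0.17, edgeR adjusted p = 0.0039). KOLPS against WTLPS was -0.13 (SE 0.12, edgeR adjusted p = 0.43), and without WTLPS replicate 1 and KOLPS replicate 2 it was -0.23 (edgeR adjusted p = 0.0034). Hmgxb3 overlaps Csf1r on the opposite strand, and 16.8% of the 100-base windows of the longest coding Csf1r transcript, in either orientation, also occur in Hmgxb3 transcripts.

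Csf3r (ENSMUSG00000028859.14, chromosome 4 from 126024550 to 126044440, plus strand), the G-CSF receptor of granulocytes, was about as scarce as Jak3. It had 222, 232 and 184 normalized counts in WT, 134, 129 and 115 in WTLPS, 343, 351 and 407 in KO, and 132, 126 and 129 in KOLPS. The order of the groups was that of Csf1r. KO reached 172% of WT (log2 fold change 0.79, SE 0.1, edgeR adjusted p = 2e-05). LPS lowered it by -0.76 in WT (SE 0.11, edgeR adjusted p = 4.6e-05) and by -1.50 in KO (SE 0.11, edgeR adjusted p = 2.1e-08), with an interaction of -0.74 (SE 0.16, edgeR adjusted p = 0.0054). KOLPS and WTLPS differed by 0.044 (SE 0.12, edgeR adjusted p = 0.8).

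Csf3r and Csf1r are also used as signs of granulocytes and macrophages, so the markers of those cells are given beside them. The 12 neutrophil markers summed to 382 to 404 TPM in WT and 197 to 231 TPM in KO, and of the 10 that were tested 1 rose and 6 fell in KO. The 9 macrophage markers summed to 742 to 791 TPM in WT and 649 to 686 TPM in KO, with 3 that rose and 3 that fell. Both sums were lower in KO, where Csf1r and Csf3r were higher. Of the 4 progenitor markers tested, 3 rose in KO, among them Gata2 (0.56 ± 0.18 TPM in WT and 2.87 ± 0.45 TPM in KO) and Cd34, and Kit fell. The part of cell composition in the changes of Csf1r and Csf3r was not tested.

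Flt3 (ENSMUSG00000042817.15, chromosome 5 from 147330741 to 147400489, minus strand), the receptor that drives dendritic cell development from progenitors in the FLT3 ligand pathway, was the scarcest member. It had 129, 129 and 137 normalized counts in WT and 140, 132 and 206 in WTLPS. It had 43.1, 24.0 and 30.6 in KO, and 108, 123 and 89.7 in KOLPS. KO stood apart below all other groups, and KOLPS lay below WT and WTLPS. KO was at 24.8% of the WT mean (log2 fold change -2.0, SE 0.22, edgeR adjusted p = 3.8e-06). LPS raised Flt3 in KO by 1.70 (SE 0.23, edgeR adjusted p = 1.3e-05), whereas in WT the difference was 0.28 (SE 0.18, edgeR adjusted p = 0.2) and reversed to -0.21 on log2(TPM + 1). The interaction was 1.42 (SE 0.29, edgeR adjusted p = 0.0044), and it passed under every alternative run. KOLPS was below WTLPS by -0.59 (SE 0.19, edgeR adjusted p = 0.022), but without WTLPS replicate 3, the highest library, it was -0.35 (edgeR adjusted p = 0.14), and the call was also lost without KOLPS replicate 1 or 3. Of the 10 dendritic cell markers, 1 rose and 5 fell in KO, and their sum after LPS was 12640 to 17390 TPM in WTLPS and 12640 to 17890 TPM in KOLPS. The part of cell composition in the change of Flt3 was not tested.

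The 250 bases before the start of Flt3, at chr5:147400490-147400739 on the minus strand, are shown because it is the member with the largest fold change in KO compared with WT. None of the 4 letter patterns occurs in its window, and this says only that these letters are not there.
Flt3: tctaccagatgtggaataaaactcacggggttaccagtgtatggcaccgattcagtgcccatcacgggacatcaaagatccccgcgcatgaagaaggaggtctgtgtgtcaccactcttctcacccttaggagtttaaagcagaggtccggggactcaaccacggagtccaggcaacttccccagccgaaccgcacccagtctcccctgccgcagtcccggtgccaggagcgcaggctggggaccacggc

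Groups of 3 did not overlap for 6 of the 10 genes in WTLPS and WT, where 65.2% of all genes did not, for 8 in KO and WT (64.2%), for 2 in KOLPS and WTLPS (46.4%) and for 9 in KOLPS and KO (71.2%). Fewer members were called once a minimum fold was also required, namely 2 for the comparisons of stimulated with unstimulated cells, 1.3 between the unstimulated genotypes and 1.5 between the stimulated ones. They were Jak2 (higher) and Csf1r (lower) in WTLPS, against 12.6% and 9.99% of all genes. In KO they were Csf1r and Csf3r (higher) and Jak2 and Flt3 (lower), against 17.3% and 17.2%. In KOLPS compared with WTLPS they were Csf2ra and Flt3, both lower, against 12.5% of all genes. In KOLPS compared with KO they were Jak2 and Flt3 (higher) and Csf1r and Csf3r (lower), against 15.1% and 13.0%. For KOLPS against WTLPS, Flt3 lay just inside the cutoff, at 1.503-fold lower. In the interaction, 6 members passed, against 17.4% of all genes, with 2 higher and 4 lower, against 8.7% and 8.75%.

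The ligands of these receptors were tested where they were expressed. Of 7 listed ligands, Csf1, Csf2, Csf3 and Flt3l passed the filter, and Il3, Il5 and Il34 did not. Csf1, which encodes M-CSF, had 683, 696 and 720 normalized counts in WT, 2317, 2351 and 2255 in WTLPS, 1526, 1505 and 1490 in KO, and 4595, 4969 and 4370 in KOLPS. The 4 groups did not overlap, and Csf1 was higher in KO (log2 fold change 1.11, SE 0.067, edgeR adjusted p = 8.6e-09) and in KOLPS against WTLPS (1.01, SE 0.065, edgeR adjusted p = 2e-08). Ligand and receptor of the M-CSF axis were thus both higher in unstimulated KO cells, while after LPS the ligand rose and the receptor fell.

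Flt3l, which encodes the FLT3 ligand, had 41.3, 56.8 and 55.3 normalized counts in WT, 41.8, 48.8 and 46.8 in WTLPS, 4.49, 7.68 and 6.48 in KO, and 5.38, 4.68 and 13.9 in KOLPS. It was lower in KO (log2 fold change -3.03, SE 0.32, edgeR adjusted p = 3.1e-06) and in KOLPS against WTLPS (-2.49, SE 0.33, edgeR adjusted p = 2.6e-05), as the receptor was. Csf2, the GM-CSF gene, was near the detection limit without LPS, with 5.51, 5.87 and 0.86 normalized counts in WT and 0 in all KO libraries. It had 22.9, 39.0 and 45.7 in WTLPS and 32.3, 21.1 and 23.5 in KOLPS. Csf3, the G-CSF gene, had 0.84 to 1.84 in WT, 0 in KO, 39.1 to 48.9 in WTLPS and 44.5 to 86.5 in KOLPS. Both rose with LPS in each genotype, and KOLPS and WTLPS overlapped.

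Downstream of the kinases, Stat5a and Stat5b encode the STAT factors that convey GM-CSF signals. With LPS in WT, Stat5a rose by a log2 fold change of 2.66 (SE 0.093, edgeR adjusted p = 8.4e-12) and Stat5b by 0.91 (SE 0.071, edgeR adjusted p = 5.3e-08). Stat2, which conveys type I interferon signals, and Stat4, which conveys IL-12 signals, also rose, by 2.35 and 0.78. In KO compared with WT, Stat4 (-1.13) and Stat2 (-1.11) fell, while Stat5b rose by 0.30 (SE 0.071, edgeR adjusted p = 0.0029). They were not the only ones of the 7 listed STAT genes that passed in KO. Stat5a had 1597, 1848 and 1699 normalized counts in WT and 1807, 1827 and 1818 in KO and did not pass (0.084, SE 0.089, edgeR adjusted p = 0.47).

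Of 11 listed targets of STAT5, 9 rose and 1 fell with LPS in WT, where 30.0% and 30.2% of all genes did. None rose and 6 fell in KO compared with WT, where 22.2% and 22.4% of all genes did. The 6 were Osm (-1.05), Bcl6 (-1.04), Bcl2l1 (-0.69), Pim1 (-0.39), Cish (-0.38) and Ccnd2 (-0.31), and the median of the list was -0.31 against -0.014 over all genes. The list does not separate targets that STAT5 raises from those it lowers, so it is no measure of STAT5 activity. Cish, the feedback inhibitor induced by STAT5, had 412, 476 and 449 normalized counts in WT and 345, 362 and 323 in KO, without overlap. Socs2, another such inhibitor, did not pass in KO (0.091, SE 0.09, edgeR adjusted p = 0.44) and was higher in KOLPS than in WTLPS by 0.69 (SE 0.087, edgeR adjusted p = 1.6e-05). In KOLPS compared with WTLPS, 3 of the 11 targets rose and 3 fell, where 21.4% and 23.3% of all genes did. The lists were drawn up with earlier results of these libraries known, so their counts are not independent evidence.

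**Figure D5:**
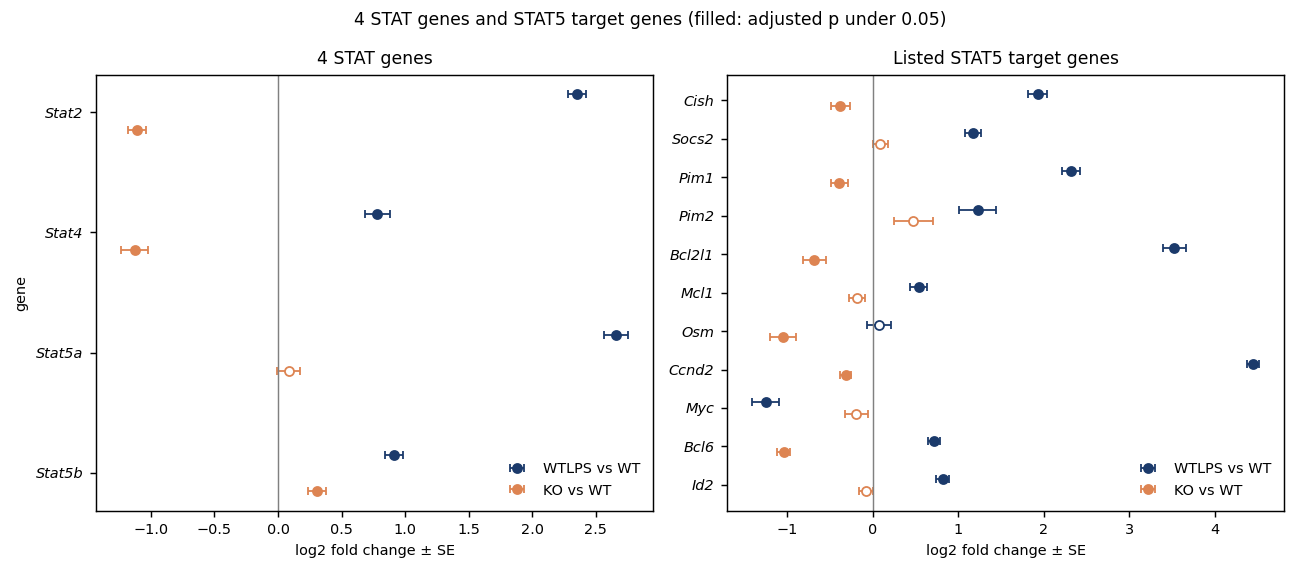
Log2 fold change (horizontal axis) with its SE for Stat2, Stat4, Stat5a and Stat5b and for the listed STAT5 targets in WTLPS compared with WT and in KO compared with WT; filled points have an edgeR adjusted p under 0.05. These 4 STAT genes lie above 0 with LPS, and the 6 filled STAT5 targets in KO lie between -1.05 and -0.31.

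Among 20 inhibitors of the pathway, 8 rose and 6 fell with LPS in WT, and 5 rose and 5 fell in KO. These counts lie near the shares of all genes, 30.0% and 30.2% with LPS and 22.2% and 22.4% in KO, against which the counts of receptor chains and adaptors are also to be read. The largest rises with LPS were those of Socs3 (log2 fold change 4.38), Socs1 (4.30) and Cish (1.93), feedback inhibitors that bind receptors or JAKs, and the largest falls those of Sh2b3 (-0.96), Cbl (-0.56) and Socs5 (-0.43). In KO the largest rise was that of Ptpn1 (1.62, SE 0.068, edgeR adjusted p = 2e-10), a phosphatase known to act on JAK2 and TYK2, followed by Socs7 (1.19) and Socs4 (0.68). Ptpn1 was also higher in KOLPS than in WTLPS (1.3, SE 0.068). Of 25 further receptor chains that signal through JAKs, 18 were tested, of which 10 rose and 4 fell with LPS in WT. In KO, 6 rose and 4 fell. Lifr (2.02), Il6ra (0.90) and Il12rb2 (0.75) rose most, and Il2ra (-1.42), Il7r (-0.70) and Il15ra (-0.29) fell most. Il3ra, the IL-3 alpha chain that pairs with both beta chains, had 173, 197 and 162 normalized counts in WT and 209, 228 and 200 in KO and did not pass (0.26, SE 0.18, edgeR adjusted p = 0.27).

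Of the receptor tyrosine kinases related to Csf1r and Flt3, Kit fell in KO (log2 fold change -1.51, SE 0.16, edgeR adjusted p = 3.7e-06) and had 145, 148 and 164 normalized counts in WT, 93.1, 115 and 123 in WTLPS, 61.9, 58.6 and 39.8 in KO, and 140, 171 and 138 in KOLPS. As for Flt3, KO was the lowest group, and KOLPS was above KO. Pdgfrb rose in KO (3.14, SE 0.21, edgeR adjusted p = 3.1e-08), from 24.8, 31.0 and 28.5 normalized counts in WT to 252, 261 and 236. Of 11 adaptors that link the receptors to other pathways, 5 rose and 1 fell with LPS in WT, and 3 rose and 2 fell in KO. Grb2 (0.65), Lyn (0.45) and Pik3r1 (0.26) rose and Pik3cg (-0.49) and Gab2 (-0.28) fell in KO.

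Genes whose log2 normalized counts followed those of 2 members most closely were sought among 9338 genes over the 12 libraries. For Jak2, the member with the largest LPS change in WT in the edgeR fit with all libraries, they were Rel (Pearson r = 0.998), Ncoa7 (0.996) and Ddx6 (0.996). Jak2 (1.23) and Csf1r (-1.18) lay within their SEs of each other in size, and Csf1r led without WTLPS replicate 1 or any of the WT replicates, without WTLPS replicate 1 and KOLPS replicate 2 together, with no filter, and on log2(TPM + 1). For Flt3, the member with the largest change in KO against WT, they were Cttnbp2nl (0.973), Ifitm1 (0.972) and Gcnt2 (0.968). The 12 libraries share 4 groups, so these values mostly describe differences between groups and carry no test.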

How the data were processed

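RNA-seq libraries of 12 cultures were aligned with STAR 2.5.1 to mm10 and quantified with RSEM, per the labels. Per the file headers, the authors deposited for each gene an expected count (an estimated count of reads that need not be whole), a TPM, an FPKM, which was not used here, and an effective length. The labels name rRNA depletion and the study's methods a stranded poly(A) kit, and the strand setting of RSEM is not given in the sources used here, so counts of overlapping genes are uncertain.

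Expected counts were rounded, and genes with low counts were removed by edgeR's filterByExpr by group, which left 14008 genes. These were scaled by TMM and tested with the quasi-likelihood method of edgeR 4.0.16 in R 4.3.3 over all 4 groups. Adjusted p-values are Benjamini-Hochberg values over these genes with a threshold of 0.05. The interaction is the LPS response in KO minus that in WT. TPM values, deposited by the authors, were used for levels, shares and ratios, which were compared by exact permutation tests (scipy 1.17.1), and for tests in limma 3.58.1 after adding 1 or 0.1 and taking log2. The fit was tested on simulated data. Alternatives were DESeq2 1.42.0, other filters, the replicate number as a block, each comparison alone, summed beta chains and each library left out. Replicate numbers were not treated as pairs in the main fit. Over the 14008 genes, deviations of same-numbered libraries had r of -0.287 to 0.113 in 18 pairs. Over the 9338 genes with a mean of at least 100 normalized counts, r was -0.653 to 0.346. Such values do not settle whether the samples were paired.

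The members and lists were chosen with earlier results of these data known. Named genes are the members, Ctcf, marker genes, at most the 3 largest rises and falls of each list, and Stat5a, Stat5b, Cish, Socs2, Csf1, Csf2, Csf3 and Flt3l. Il3ra, Pim1 and Ccnd2 were named after their values were seen. Genes most alike had a mean of at least 100 normalized counts. A further listed gene is not reported here.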

Additional observations from a re-analysis of the deposited data

Results flagged for a closer look

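For 6 of the 10 genes the response to LPS differed between KO and WT by the interaction in edgeR's quasi-likelihood test, given as the log2 fold change with LPS in KO minus that in WT. Of all genes, 17.4% passed this test. With each of the 12 libraries left out in turn, the call was lost in 7 fits for Jak2 and in 10 for Csf2rb2. It was 0.52 for Jak2 (edgeR adjusted p = 0.041) and 1.42 for Flt3 (edgeR adjusted p = 0.0044), which rose more in KO. It was -0.65 for Csf2ra (edgeR adjusted p = 0.0024), -0.44 for Csf2rb2 (edgeR adjusted p = 0.032), -0.85 for Csf1r (edgeR adjusted p = 0.0039) and -0.74 for Csf3r (edgeR adjusted p = 0.0054), which fell more in KO. For Csf2ra and Csf2rb2 the LPS difference in WT did not pass the test, and for Flt3 the rise did so in KO and not in WT. Jak2, Csf2rb2, Csf1r, Csf3r and Flt3 also differed between KO and WT before LPS.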

How the results depend on the processing

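Counting single members together with shares and ratios, 1159 values stayed the same under the alternatives, and 8 shares or ratios moved. For a member, the same means that direction and side of the threshold were kept. For a share or ratio, it means a shift of less than an SD, with no threshold. Of the values of single members, 27 passed the threshold newly, 50 lost it and 42 reversed. The cause was not tested. In limma on log2(TPM + 1) and log2(TPM + 0.1), the following reversed. In WTLPS against WT, Jak1 was -0.15 and -0.15, Jak3 -0.26 and -0.29, Tyk2 -0.38 and -0.39, and Flt3 -0.21 and -0.27. In KOLPS against KO, Jak1 was -0.095 and -0.097, Jak3 -0.23 and -0.27, and Tyk2 -0.39 and -0.40. The value of Csf2ra, KO vs WT, was -0.052 and -0.052, and also -0.0074 in DESeq2 and -0.0068 with DESeq2 size factors in edgeR. In KOLPS against WTLPS, Jak2 was -0.0074 and -0.0074, and in the interaction Jak1 was 0.052 and 0.053 and Jak3 0.023 and 0.022. With each library left out in turn, values that crossed 0 ranged from -0.078 to 0.054 for Csf2ra and from -0.031 to 0.034 for Csf2rb in KO against WT. In KOLPS against WTLPS the ranges were -0.19 to 0.0050 for Jak1, -0.11 to 0.16 for Jak2 and -0.019 to 0.086 for Csf3r. In the interaction they were -0.12 to 0.081 for Jak1 and -0.11 to 0.055 for Tyk2. Limma called 1 member higher and 7 lower in WTLPS against WT with both pseudocounts, where a fold cutoff of 2 left 1 and 1. In KOLPS against WTLPS, the 3 members called lower became 1 with its 6 libraries alone, 7 without WTLPS replicate 1 and KOLPS replicate 2 (chosen after seeing the data, leaving 2 libraries in those groups), and 1 to 6 with each library left out (6 without KOLPS replicate 2, 1 without KOLPS replicate 1 or 3). In KOLPS against KO, a fold cutoff of 2 left 2 called lower. In the interaction, limma called 1 member higher, and leaving out single libraries 1 to 2. Under the replicate block, which does not reflect a pairing known from the labels, the interaction also had 1 member higher, since Jak2 was at 0.52 (edgeR adjusted p = 0.055). Low counts limit the precision of Flt3 in KO and of Csf2 and Csf3 without LPS.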
